A study of Mus musculus with 12 samples.

Results

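The 9 genes that build the node of Ranvier and its flanking domains were followed in spinal cord white matter of young and middle-aged mice, with and without a demyelinating lesion. They were chosen by symbol, with earlier results of these data known: Nfasc, Cntn1, Cntnap1, Cntn2, Cntnap2, Ank3, Ank2, Sptbn4 and Scn8a. All 9 were found among the 46078 genes of the count table and all 9 passed the filter on low counts, which left 15866 genes for testing. The samples were 12 pools of C57Bl6 mice in 4 groups of 3 pools, and each pool held tissue of 5 mice. Young mice were 6 weeks old and middle-aged mice 8 months old, and at each age there was a naïve and an injured group. Injured mice had received lysolecithin, a lipid that dissolves myelin membranes, 72 h (day 3) earlier, whereas naïve mice had no lesion. The methods place the injection in the ventrolateral funiculus for histology and electron microscopy, and in the dorsal column for live imaging. They do not name the site for the sequenced mice. The white matter was cut out of stained cryosections by laser capture microdissection, and its RNA was amplified while the libraries were built. The ages in numbers are those of the study's methods, and the labels hold the age words alone. The methods describe the mice used for lysolecithin demyelination as female, without naming the sequenced mice, and give other age ranges for those experiments. The number of sections per mouse was not given in the sources used here. Each pool is 1 replicate, and the spread between mice within a pool was not measured.

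A node of Ranvier is a short gap in the myelin sheath where voltage-gated sodium channels regenerate the action potential. On either side of it lies the paranode, where loops of the myelin-forming glial cell attach to the axon, and beyond that the juxtaparanode, where potassium channels gather under the sheath. In the central nervous system the sheath belongs to oligodendrocytes, whereas most of the axonal proteins named here are made in the neuron's cell body, which lies largely outside white matter. Several of the 9 genes are also transcribed in glia, so a transcript in white matter is not by itself a neuronal one. Neurofascin (Nfasc) has a glial form at the paranode and a neuronal form at the node, and a count per gene adds these forms together.

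The members lay on 7 chromosomes of GRCm38 in the GENCODE M21 annotation. Nfasc (ENSMUSG00000026442) was at chr1:132564690-132741797 on the minus strand, next to Cntn2 at chr1:132509427-132543256, also on the minus strand. Cntn1 was at chr15:92051165-92341967 and Scn8a at chr15:100869858-101045938, both on the plus strand. Cntnap1 was at chr11:101170523-101190724 on the plus strand, Cntnap2 at chr6:45059357-47304213 on the plus strand, Ank3 at chr10:69398773-70027438 on the plus strand, Ank2 at chr3:126921612-127499350 on the minus strand, and Sptbn4 at chr7:27356383-27447686 on the minus strand. Exons of Cntnap1 overlapped those of Plekhh3 on the opposite strand over 233 bases (3.97% of its exons), exons of Sptbn4 overlapped those of Gm20479 on its own strand over 134 bases (1.40%) and those of Gm44924 on the opposite strand over 243 bases (2.54%), and exons of Ank2 overlapped those of the antisense gene Gm16958 over 182 bases (0.52%). Reads of these stretches cannot be assigned to one gene without knowing how strand was counted.

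The transcription starts of the members that moved most closely together are shown first, with those of Nfasc, for which RefSeq gives separate starts. RefSeq gave promoter windows of 300 bases (250 before and 50 after the start, build GRCm38.p6) for 7 of the 9 members, 18 windows in all. Cntnap1 and Ank3 had no entry. The windows below are written in the direction of transcription. The pair of Nfasc windows is chr1:132707277-132707576 and chr1:132642809-132643108 on the minus strand. Cntnap2 and Scn8a each had a second window, and the first is shown. The first Cntnap2 window is chr6:45059811-45060110 on the plus strand, and the first Scn8a window is chr15:100870395-100870694 on the plus strand. Capitals mark a GC box (GGGCGG, in Nfasc start 1 and Cntnap2) or an E-box (CAGCTG, in Nfasc start 2).
Nfasc start 1: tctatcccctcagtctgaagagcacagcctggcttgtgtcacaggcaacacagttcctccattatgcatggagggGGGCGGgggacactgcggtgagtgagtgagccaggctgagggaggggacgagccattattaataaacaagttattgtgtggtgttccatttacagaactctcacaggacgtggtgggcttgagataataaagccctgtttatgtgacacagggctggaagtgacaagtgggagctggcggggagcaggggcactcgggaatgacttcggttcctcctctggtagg
Nfasc start 2: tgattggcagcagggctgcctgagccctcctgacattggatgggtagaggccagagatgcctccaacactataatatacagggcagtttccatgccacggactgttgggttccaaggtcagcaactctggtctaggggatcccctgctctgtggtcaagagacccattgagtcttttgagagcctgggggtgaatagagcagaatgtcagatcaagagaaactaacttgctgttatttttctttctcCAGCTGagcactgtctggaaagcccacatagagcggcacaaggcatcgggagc
Cntnap2: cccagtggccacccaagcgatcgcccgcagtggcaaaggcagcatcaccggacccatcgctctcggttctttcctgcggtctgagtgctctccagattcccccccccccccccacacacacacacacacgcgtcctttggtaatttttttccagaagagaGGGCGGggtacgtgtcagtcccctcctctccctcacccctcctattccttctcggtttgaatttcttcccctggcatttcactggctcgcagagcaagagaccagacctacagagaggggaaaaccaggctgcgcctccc
Scn8a: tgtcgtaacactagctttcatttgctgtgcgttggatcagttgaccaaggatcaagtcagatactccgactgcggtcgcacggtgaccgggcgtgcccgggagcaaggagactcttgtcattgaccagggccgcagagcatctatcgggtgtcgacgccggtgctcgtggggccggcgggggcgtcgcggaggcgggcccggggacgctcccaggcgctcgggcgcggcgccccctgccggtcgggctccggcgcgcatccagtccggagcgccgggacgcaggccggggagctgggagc

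The 3 motifs GGGCGG (GC box), ACAAAG (a SOX factor motif) and CAGCTG (an E-box) were searched on both strands, and none of them overlaps another. The GC box was in 6 of the 18 member windows (33.3%) against 35.7% of all 32851 RefSeq windows, the SOX motif in 2 (11.1%) against 18.7%, and the E-box in 3 (16.7%) against 16.3%. The GC box of Nfasc began 175 bases before its first start and that of Cntnap2 began 90 bases before its first start. The E-box of Nfasc began 3 bases before its second annotated start and so spans it. Whether these starts and motifs are used in this tissue was not tested. The Scn8a window above held none of the 3 motifs, and neither did the windows of Cntn1 and Cntn2. The second window of Scn8a held a SOX motif, which began 175 bases before that start, and the second window of Cntnap2 held none of the 3. GC content was 70.0% in the first window of Scn8a and 73.7% in that of Sptbn4, against a median of 52.7% over all windows, and it was 54.3% in the first window of Nfasc.

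Depth was even across the pools, with 9834447 to 12807437 counts each, so that the detection floor of 3 counts came to 0.234 to 0.305 CPM (a count scaled by the size of its library). Pools of a group correlated with Pearson's r of 0.937 to 0.988 over genes, which are not independent replicates, and middle-aged naïve replicate 2 gave the lowest values. The 9 mature oligodendrocyte markers, which include the myelin gene Mbp, summed to 88009 to 103671 CPM in young naïve pools, as a white matter sample should hold. No defining marker of that list was at 0 in any group. In the same pools 7 markers of neuron cell bodies summed to 98.9 to 263 CPM. Such cell bodies lie largely outside white matter, and how their transcripts came into the pools was not tested.

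Levels of the members in white matter differed widely. In young naïve pools the level per kilobase of all annotated exons was highest for Nfasc, at 61.3 ± 8.42 CPM per kilobase (SD, n = 3), followed by the paranodal adhesion molecule Cntn1 at 48.8 ± 3.10, Cntn2 at 31.3 ± 6.58 and Ank3 at 31.05 ± 4.63. Scn8a at 8.96 ± 3.73, Ank2 at 7.88 ± 0.849 and Cntnap2 at 5.32 ± 2.87 CPM per kilobase formed a middle group. Cntnap1, which encodes Caspr, had 1.70 ± 0.871 and Sptbn4, which encodes the spectrin of the nodal cytoskeleton, had 0.533 ± 0.194. Neighbours within the middle group, and Cntn2 and Ank3 above it, differed by less than their spread. The order depends on the length used: per kilobase of the longest transcript, Ank3 came first at 109 CPM per kilobase in young naïve pools, above Nfasc at 89.0, and Ank2 at 19.3 stood above Scn8a at 12.3. Ank3 and Ank2 have exon unions of 34838 and 35004 bases but longest transcripts of 9963 and 14305 bases. Sptbn4 was the lowest member by either length, with 28 to 110 counts in naïve pools and 19 to 28 in injured pools, so that its values carry the widest counting error.

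**Figure D1:**
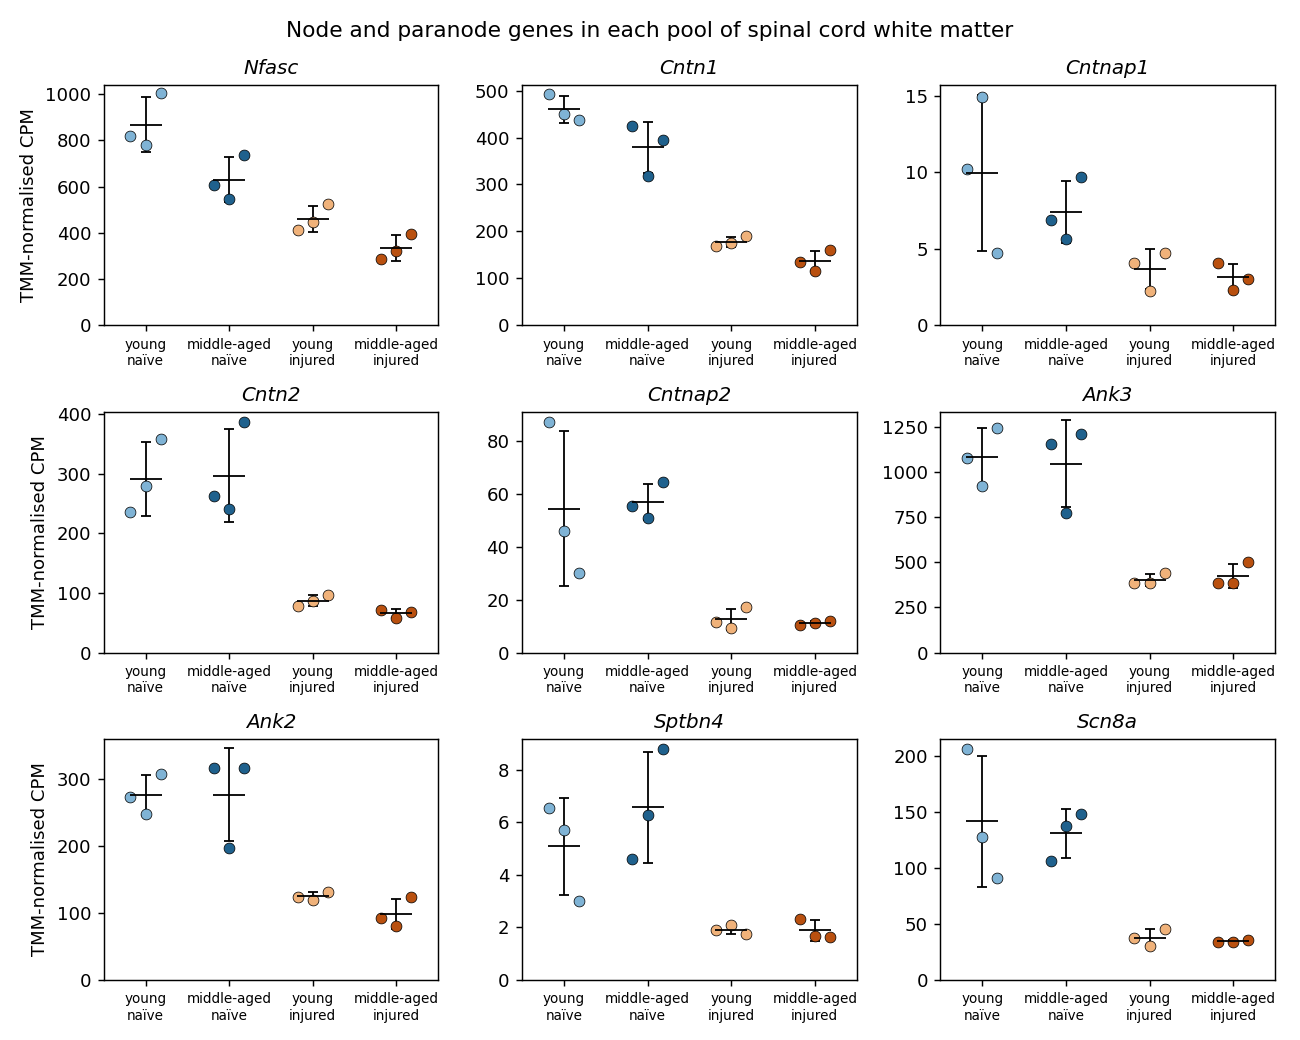
Each panel plots 1 member in the 12 pools, with TMM-normalised CPM on a linear axis from 0. Points are pools in replicate order, and the line with bars is the mean ± SD of 3 pools; the 3 young naïve pools of Cntnap1 span 4.73 to 15.0 CPM and reach down to the injured pools, whereas all other naïve pools lie above the injured pools of the same age.

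Every member was lower after injury at both ages. In young mice all 9 fell by edgeR's quasi-likelihood test with Benjamini-Hochberg adjustment, where 26.3% of all genes tested were called lower, and 8 of the 9 had no overlap between naïve and injured pools, where 32.2% of all genes were lower without overlap. In middle-aged mice all 9 fell against a background of 29.3%, and all 9 were without overlap against 29.7%. Across all genes, 22.8% were called lower at both ages. The median log2 fold change of the members was -1.43 in young and -1.49 in middle-aged mice, beside medians over all genes of 5e-04 and -0.0322. The changes ranged from -0.91 for Nfasc to -2.10 for Cntnap2 in young mice, and from -0.91 to -2.35 for the same genes in middle-aged mice. In bulk tissue, fewer cells of a type, less RNA per cell and RNA added by other cells cannot be told apart.

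**Figure D2:**
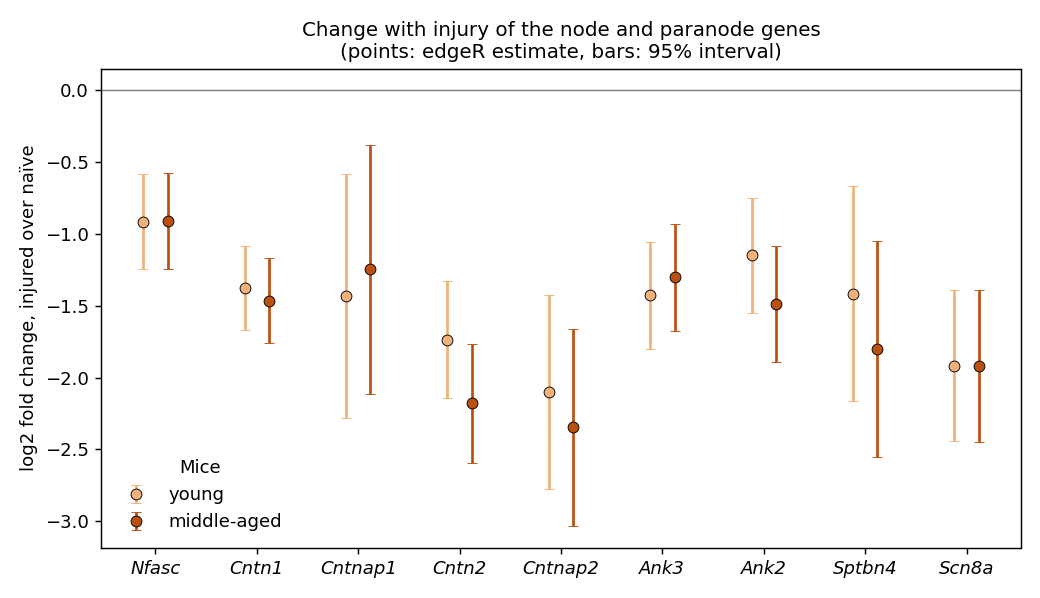
The vertical axis gives the log2 fold change of injured over naïve pools for each member, with the edgeR estimate as a point and its 95% interval as a bar, for young and for middle-aged mice. Every interval lies below 0, Nfasc is nearest to 0 with -0.91 at both ages, and Cntnap2 is farthest with -2.10 and -2.35.

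The paranodal axoglial junction is formed by contactin 1 and Caspr on the axon and the glial form of neurofascin on the myelin loop. Cntn1 measured 493, 450 and 437 TMM-normalised CPM in young naïve replicates 1 to 3 and 168, 175 and 189 CPM in the injured ones. In middle-aged mice it measured 425, 319 and 395 CPM in naïve pools and 136, 117 and 160 CPM in injured pools. No pool of an injured group reached a naïve pool, and the fitted fall was 2.59-fold in young mice (log2 fold change -1.37, SE 0.14, adjusted p = 1.07e-06) and 2.76-fold in middle-aged mice (-1.46, SE 0.14, adjusted p = 5.1e-07).

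Nfasc was the most abundant member per exon length and the one that fell least. It measured 819, 779 and 1002 CPM in young naïve pools and 412, 445 and 523 CPM in young injured pools. Middle-aged naïve pools had 605, 546 and 735 CPM, and middle-aged injured pools had 287, 321 and 396 CPM. The groups did not overlap, and the fall was 1.88-fold at both ages (log2 fold change -0.91, SE 0.16, adjusted p = 1.73e-04 in young and 1.61e-04 in middle-aged mice). Its log2 fold change was above that of Cntn1 at both ages, and of all genes tested 18.9% in young and 22.4% in middle-aged mice had a lower one. Which of its forms fell cannot be read from a count per gene.

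Cntnap1 was among the 2 lowest members and had the least stable call. Its pools held 10.2, 15.0 and 4.73 CPM in young naïve mice (112, 165 and 44 counts) and 4.11, 2.25 and 4.74 CPM in young injured mice. Young naïve replicate 3 therefore lay within the range of the injured pools, and these groups overlapped. Middle-aged naïve pools had 6.91, 5.67 and 9.68 CPM, all above the injured pools at 4.07, 2.32 and 3.02 CPM. The log2 fold change was -1.43 (SE 0.40, adjusted p = 0.00688, edgeR) in young and -1.25 (SE 0.40, adjusted p = 0.0162) in middle-aged mice. Without young naïve replicate 2 the young value was -1.01 with an adjusted p of 0.0548, and the middle-aged value was -1.0 (adjusted p = 0.0702) without middle-aged naïve replicate 3 and -1.07 (adjusted p = 0.0683) without middle-aged injured replicate 2.

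Contactin 2 (Cntn2) and Caspr2 (Cntnap2) form the adhesion complex of the juxtaparanode, and contactin 2 is made by the axon and by the myelinating cell. Cntn2 measured 236, 279 and 357 CPM in young naïve pools against 77.7, 86.9 and 97.2 CPM in young injured pools. In middle-aged mice the values were 262, 241 and 387 CPM in naïve and 71.0, 57.6 and 68.3 CPM in injured pools. Naïve and injured pools were well apart at both ages, with a fall of 3.33-fold in young mice (log2 fold change -1.74, SE 0.19, adjusted p = 2.71e-06) and of 4.52-fold in middle-aged mice (-2.18, SE 0.19, adjusted p = 2.91e-07).

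The largest fall of the members was that of Cntnap2. Young naïve pools held 87.2, 46.1 and 30.2 CPM, a spread that took its SD to 53.9% of the mean, and young injured pools held 11.7, 9.38 and 17.1 CPM. Middle-aged naïve pools held 55.6, 51.0 and 64.5 CPM, and middle-aged injured pools 10.5, 11.2 and 11.9 CPM. Even the lowest naïve pool stood above every injured pool. The fall was 4.29-fold in young (log2 fold change -2.10, SE 0.32, adjusted p = 5.77e-05) and 5.09-fold in middle-aged mice (-2.35, SE 0.32, adjusted p = 2.04e-05), and only 2.91% and 3.87% of all genes tested had a lower log2 fold change.

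The axonal membrane proteins of the node are anchored by ankyrins to spectrin. Ank3, which encodes ankyrin G of the node and the axon initial segment, measured 1076, 923 and 1246 CPM in young naïve pools and 385, 383 and 440 CPM in young injured pools. Its values in middle-aged mice were 1155, 772 and 1211 CPM in naïve and 386, 387 and 501 CPM in injured pools. Naïve replicate 2 was the lowest of its group, and still above all injured pools. The fall was 2.69-fold in young (log2 fold change -1.43, SE 0.17, adjusted p = 7.78e-06) and 2.47-fold in middle-aged mice (-1.30, SE 0.17, adjusted p = 1.60e-05).

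Ank2 encodes ankyrin B, an ankyrin of the axon shaft and the paranodal region. Its CPM were 273, 248 and 307 in young naïve and 124, 119 and 131 in young injured pools. Middle-aged naïve pools measured 316, 196 and 316 CPM, and middle-aged injured pools 91.5, 80.5 and 123 CPM. As for Ank3, middle-aged naïve replicate 2 was far below the other pools of its group. The log2 fold change was -1.15 (SE 0.19, adjusted p = 1.16e-04) in young and -1.49 (SE 0.19, adjusted p = 9.96e-06) in middle-aged mice, the latter becoming -1.68 without middle-aged naïve replicate 2.

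Sptbn4, the gene of the spectrin that links ankyrin G to actin at the node, had 6.56, 5.71 and 3.01 CPM in young naïve pools and 1.91, 2.09 and 1.73 CPM in young injured pools. In middle-aged mice it had 4.61, 6.30 and 8.80 CPM in naïve pools and 2.32, 1.68 and 1.64 CPM in injured pools. The groups did not overlap in spite of the low counts. Its fall was 2.67-fold in young (log2 fold change -1.42, SE 0.35, adjusted p = 0.00322) and 3.49-fold in middle-aged mice (-1.80, SE 0.35, adjusted p = 4.88e-04).

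Scn8a encodes the pore-forming sodium channel subunit of mature nodes. Young naïve pools held 206, 127 and 90.8 CPM and young injured pools 37.3, 29.9 and 45.0 CPM. In middle-aged mice the naïve pools held 106, 138 and 148 CPM, and the injured pools held 33.9, 34.1 and 35.6 CPM, a spread of 2.68% of the mean. All naïve pools lay above all injured ones. The fitted fall was 3.78-fold at both ages (log2 fold change -1.92, SE 0.25, adjusted p = 1.30e-05 in young and 1.17e-05 in middle-aged mice).

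Within the young naïve group the members did not share 1 order of pools. Scn8a, Cntnap2, Cntnap1, Sptbn4 and, by a small margin, Cntn1 were lowest in replicate 3, whereas Nfasc, Cntn2, Ank3 and Ank2 were highest there. The summed CPM of 7 neurofilament and pan-neuronal markers was 4761, 3549 and 2036 in the same pools, and that of 7 markers of neuron cell bodies was 263, 158 and 98.9. The sum of the mature oligodendrocyte markers had the opposite order, at 88009, 97484 and 103671 CPM. The part of these markers in the spread of the members was not tested. Scn8a and Cntnap2 were the closest pair of members, with a Pearson's r of log2 CPM of 0.991 over the 12 pools, and the lowest r was that of Nfasc with Sptbn4, at 0.681. These are descriptions over pools that share 4 groups and a common injury difference. Without young naïve replicate 3 all 9 members were still called in young mice, with log2 fold changes of -2.15 for Scn8a and -2.39 for Cntnap2.

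Age did not bring any member past the threshold in naïve mice, where 3.8% of all genes were called in either direction, and DESeq2 also called 0 of the 9. Without the filter on low counts edgeR called 1 member, Nfasc (log2 fold change -0.48, adjusted p = 0.033). With the filter, at an unadjusted p under 0.05 the 1 member was again Nfasc. It was lower in middle-aged than in young naïve mice without overlap (log2 fold change -0.46, 95% interval -0.79 to -0.13, adjusted p = 0.119, edgeR), and so was Cntn1 (-0.28, interval -0.57 to 0.01, adjusted p = 0.289). Nfasc and Cntn1 were the 2 members whose pools did not overlap in this contrast, where 9.34% of all genes were lower without overlap. The other members had log2 fold changes of -0.42 for Cntnap1, -0.11 for Scn8a, -0.05 for Ank3, 0.0020 for Ank2, 0.03 for Cntn2, 0.06 for Cntnap2 and 0.36 for Sptbn4. The intervals of Ank2 (-0.39 to 0.40) and Ank3 (-0.41 to 0.32) leave room for differences of that size, and that of Cntnap1 reached from -1.25 to 0.40. The estimates of Cntn2, Ank2, Scn8a, Cntnap2 and Ank3 changed sign when single pools were left out.

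Between injured mice of both ages no member was called either, where 1.15% of all genes were, and DESeq2 called 0. At an unadjusted p under 0.05 there were 3 members, and these were the 3 whose pools did not overlap, against 12.2% of all genes lower without overlap. Nfasc was lower in middle-aged injured mice by a log2 fold change of -0.46 (95% interval -0.79 to -0.13, adjusted p = 0.238, edgeR), Cntn1 by -0.37 (-0.66 to -0.08, adjusted p = 0.304) and Cntn2 by -0.41 (-0.81 to -0.01, adjusted p = 0.501). Nfasc and Cntn1 thus had the same order of groups from high to low, with no overlap between neighbours. Naïve stood above injured mice and, within each, young above middle-aged mice. The summed mature oligodendrocyte markers had this order without overlap too, and the share of all genes with it was not computed. For the other 7 members the 2 naïve groups overlapped, and for 6 of these, all but Cntn2, the injured groups overlapped too. The summed mature oligodendrocyte markers were also lower in middle-aged mice, at 54158 to 61882 CPM in naïve and 8123 to 12784 CPM in injured pools, with 4 of 9 markers called lower in naïve and 6 of 9 in injured mice. Their part in the Nfasc, Cntn1 and Cntn2 values was not tested.

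The change with injury itself did not pass the test of a difference between ages for any member, where 22 genes (0.139%) were called, and DESeq2 called 0 members as well. At an unadjusted p under 0.05 there were 0 members. The difference, middle-aged minus young, was largest in size for Cntn2 (log2 -0.44, 95% interval -1.0 to 0.12, adjusted p = 0.639). It was -0.39 for Sptbn4 with an interval of -1.44 to 0.67, and -0.34 for Ank2 with -0.90 to 0.22. Nfasc (0.0038, interval -0.46 to 0.47) and Scn8a (-0.0018, interval -0.72 to 0.71) had near-identical estimates at both ages, with intervals that allow sizeable differences either way. The estimates of Nfasc, Scn8a, Cntnap1, Cntnap2, Ank3 and Cntn1 changed sign when single pools were left out.

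Ratios of members within a pool do not depend on how libraries are scaled. The 5 pairs compared were chosen with earlier results of these data known. For 2 of them, which set a juxtaparanodal member against its paranodal relative, the ratio was lower after injury over both ages together, but seldom so with a pool left out. The log2 ratio of counts of Cntn2 to Cntn1 was -1.06, -0.69 and -0.29 in young naïve and -1.11, -1.01 and -0.96 in young injured pools. In middle-aged mice it was -0.70, -0.40 and -0.03 in naïve and -0.94, -1.02 and -1.23 in injured pools. The groups overlapped in young mice and were apart in middle-aged mice, and the mean change over both ages was -0.52 (exact 2-sided permutation test with injury labels exchanged within ages, p = 0.015, adjusted over the 5 pairs 0.0375, smallest p possible 0.005).

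For Cntnap2 to Cntnap1 the log2 ratio was 3.07, 1.61 and 2.62 in young naïve pools and 1.47, 1.99 and 1.82 in young injured pools. It was 2.97, 3.12 and 2.72 in middle-aged naïve pools and 1.34, 2.20 and 1.92 in middle-aged injured pools. Again only the middle-aged groups were apart, and the mean change was -0.90 (exact permutation test, p = 0.015, adjusted p = 0.0375). Both calls rest on all 12 pools together. With 1 pool left out, the adjusted p of Cntn2 to Cntn1 was past the threshold in 2 of 12 cases and that of Cntnap2 to Cntnap1 in 1 of 12, with adjusted p up to 0.075 for each. The changes kept their sign throughout, between -0.61 and -0.42 for the first pair and between -1.10 and -0.74 for the second.

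Ank2 to Ank3 was not called over both ages together (mean change of the log2 ratio 0.04, exact permutation test, p = 0.63, adjusted p = 0.63). The ages differed in sign, however. In young mice the ratio was -1.98, -1.90 and -2.02 in naïve and -1.64, -1.69 and -1.75 in injured pools, a difference of 0.27 without overlap. In middle-aged mice it was -1.87, -1.97 and -1.94 in naïve and -2.07, -2.26 and -2.02 in injured pools, a difference of -0.19 without overlap. Within 1 age, 3 pools against 3 cannot reach an exact p below 0.10. The ratio of Scn8a to Sptbn4 had a mean change of -0.38 (p = 0.065, adjusted p = 0.108) and that of Nfasc to Cntnap1 of 0.35 (p = 0.345, adjusted p = 0.431) by the same exact permutation test, and their groups overlapped at both ages.

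**Figure D3:**
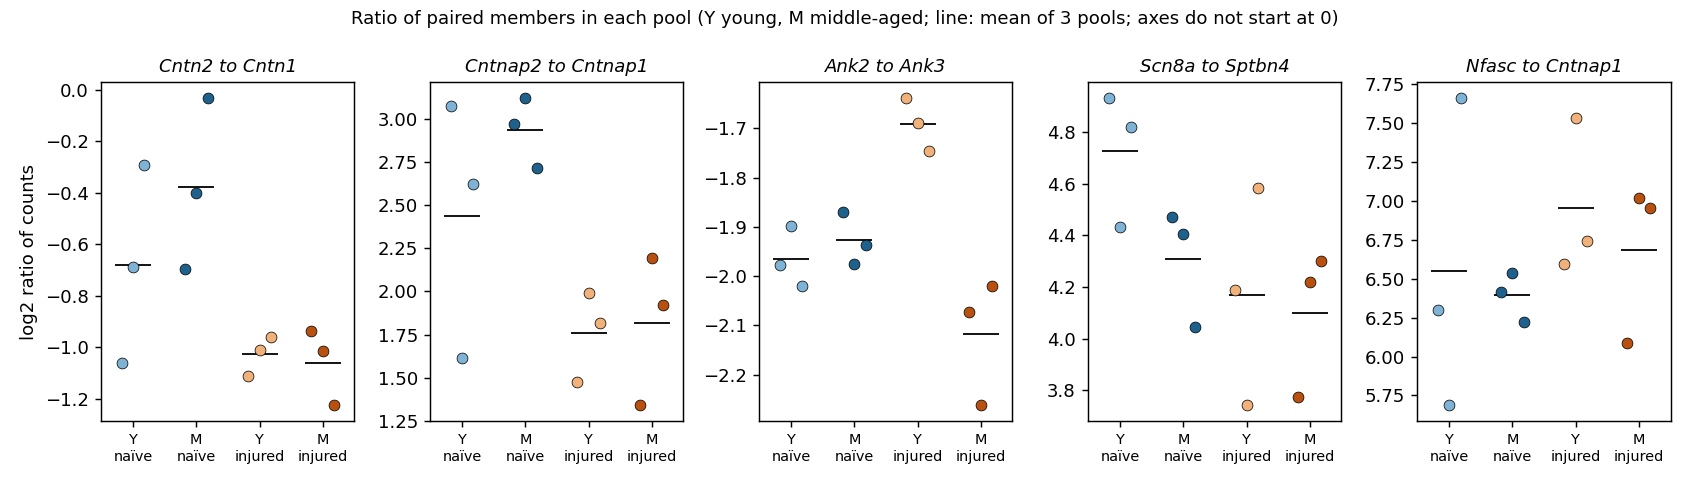
Each panel plots the log2 ratio of the counts of 2 members in each of the 12 pools, with a line at the mean of each group of 3. For Ank2 to Ank3 the young injured pools (-1.75 to -1.64) lie above the young naïve pools, and the middle-aged injured pools (-2.26 to -2.02) lie below the middle-aged naïve pools.

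Other genes of the node and its flanking domains, and paralogs of the members, were read from 6 lists. Of the nodal sodium channel subunits, 3 of 6 tested fell and 1 rose in young mice, where 26.3% of all genes were called lower and 28.3% higher. In middle-aged mice 4 fell and 1 rose, where 29.3% of all genes were called lower and 29.2% higher. The falls were largest for Scn4b, an auxiliary subunit (log2 fold change -2.46 in young and -2.64 in middle-aged mice), and for Scn1a, another pore-forming subunit (-2.13 and -2.28), both larger in size than that of Scn8a. Scn3b, an auxiliary subunit, was the one that rose (1.80, SE 0.31, adjusted p = 1.75e-04 in young and 1.38, SE 0.31, adjusted p = 0.00159 in middle-aged mice, edgeR), at 1.47 to 3.36 CPM in naïve and 4.79 to 10.1 CPM in injured pools.

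For this list and those that follow, 26.3% of all genes were called lower in young and 29.3% in middle-aged mice. The potassium channel subunits of the node and juxtaparanode gave 6 of 7 tested lower in young and 7 of 7 in middle-aged mice, and Kcnk4 was too low to test. Kcnab1, a cytoplasmic subunit of the juxtaparanodal channels that Caspr2 clusters, had -2.32 and -2.18, and of the pore subunits Kcna1 had -1.85 and -1.79 and Kcna2 had -1.78 and -2.03. All 5 juxtaparanodal partners fell at both ages, with Lgi3 at -2.35 and -2.78 and Adam22, a binding partner of LGI proteins, at -1.56 and -1.86. The 4 spectrin and protein 4.1 genes fell at both ages as well. Epb41l3, which encodes the 4.1B protein that links Caspr and Caspr2 to the cytoskeleton, had -1.80 and -1.66. Of the paralogs of the members, 5 of 7 tested fell in young and 7 of 7 in middle-aged mice, and 3 of the 10 listed were too low to test. Cntnap4 had -1.97 and -2.37, at low counts of 13 to 30 in young injured and 16 to 26 in middle-aged injured pools.

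The nodal matrix and adhesion list was split. At both ages 3 of its 7 genes rose and 3 fell. Of all genes tested, 28.3% were called higher in young and 29.2% in middle-aged mice. Tnr, named because it was the remaining one, was not called (0.53 in young and 0.03 in middle-aged mice). Nrcam, the cell adhesion molecule that accompanies neurofascin at nodes, measured 82.3 to 145 CPM in naïve and 371 to 580 CPM in injured pools (log2 fold change 2.13, SE 0.17, adjusted p = 1.30e-07 in young and 2.04, SE 0.17, adjusted p = 1.67e-07 in middle-aged mice, edgeR). Vcan and Ncan, which encode the proteoglycans versican and neurocan, rose by 1.53 and 0.93 (log2) in young and by 1.20 and 1.42 in middle-aged mice. Hapln2, a link protein of the nodal matrix, had -2.07 and -2.17, Omg had -2.0 and -1.88, and Bcan, the gene of brevican, had -1.72 and -3.55. Between ages, Ncan (-1.22) and Omg (-0.63) were lower in middle-aged naïve mice, and Lgi3 (-0.89), Bcan (-1.97) and Vcan (-0.75) were lower in middle-aged injured mice. With edgeR and TMM factors these were the only calls among the tested genes of the 6 lists in the age contrasts. Of all genes tested, 3.8% were called in either direction in naïve and 1.15% in injured mice. In injured mice 5 genes of the lists were called with library totals and 8 with DESeq2.

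**Figure D4:**
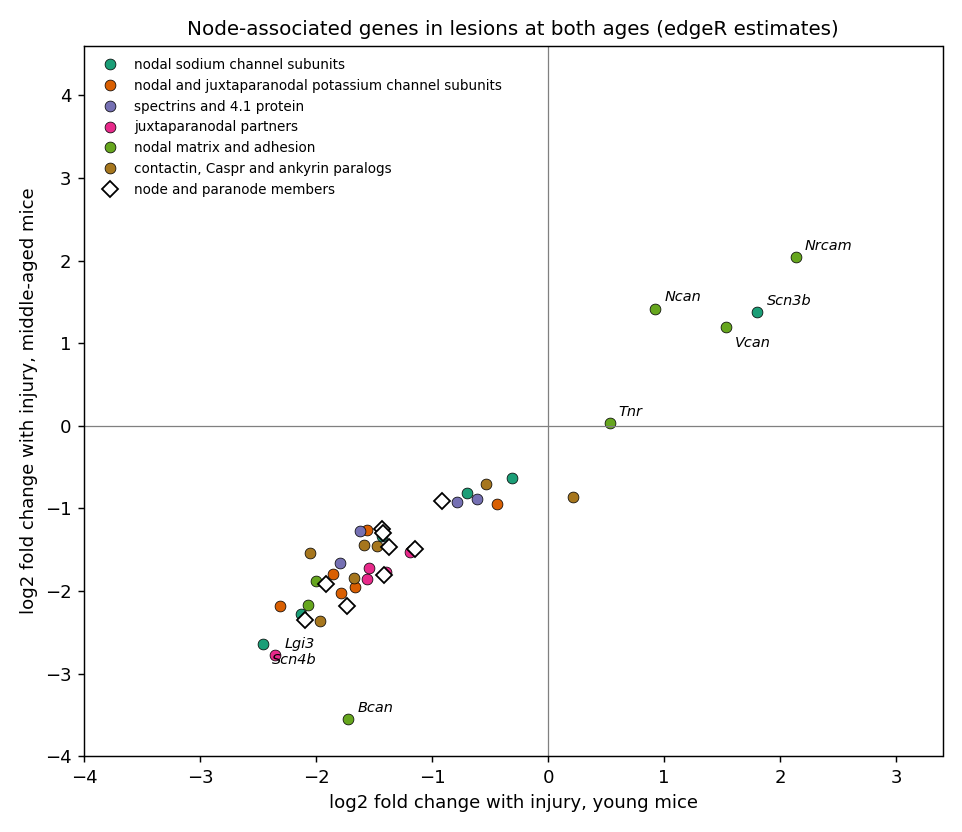
Each point is a gene, placed by its log2 fold change with injury in young mice on the horizontal axis and in middle-aged mice on the vertical axis. The members (diamonds) and most of the listed genes lie in the lower left, whereas Nrcam, Vcan, Ncan and Scn3b lie in the upper right and Bcan lies lowest, at -1.72 and -3.55.

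Cell type markers moved with injury beside the members. Of all genes tested, 26.3% were called lower and 28.3% higher in young mice, and 29.3% lower and 29.2% higher in middle-aged mice. All 9 mature oligodendrocyte markers fell at both ages, with a median log2 fold change of -2.17 in young and -2.44 in middle-aged mice, and their summed level went from 88009 to 103671 CPM in young naïve to 18622 to 20683 CPM in young injured pools. The neurofilament and pan-neuronal markers fell in 6 of 7 cases in young and 7 of 7 in middle-aged mice, from 2036 to 4761 CPM in naïve to 793 to 1041 CPM in injured pools over both ages. Markers of neuron cell bodies fell in 5 of 7 cases in young mice, whereas 4 fell and 1 rose in middle-aged mice, with sums of 98.9 to 263 CPM in naïve and 44.0 to 75.0 CPM in injured pools. Astrocyte markers fell in 4 of 5 cases at both ages, from 9531 to 11638 CPM to 3495 to 5493 CPM. The 6 myeloid markers all rose, from 89.6 to 183 CPM in naïve to 1352 to 1866 CPM in injured pools, and the 4 fibroblast markers rose at both ages. Oligodendrocyte progenitor markers rose in 2 of 5 cases in young and 3 of 5 in middle-aged mice, and endothelial markers in 2 of 4, with 1 of 4 lower in middle-aged mice. Of the 3 Schwann cell markers tested, 2 rose in young and 1 in middle-aged mice, the list summed to at most 39.1 CPM in any pool, and Pmp2, which marks Schwann cells, was at 0 in all pools of both middle-aged groups. The part of any of these in the fall of the members was not tested.

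**Figure D5:**
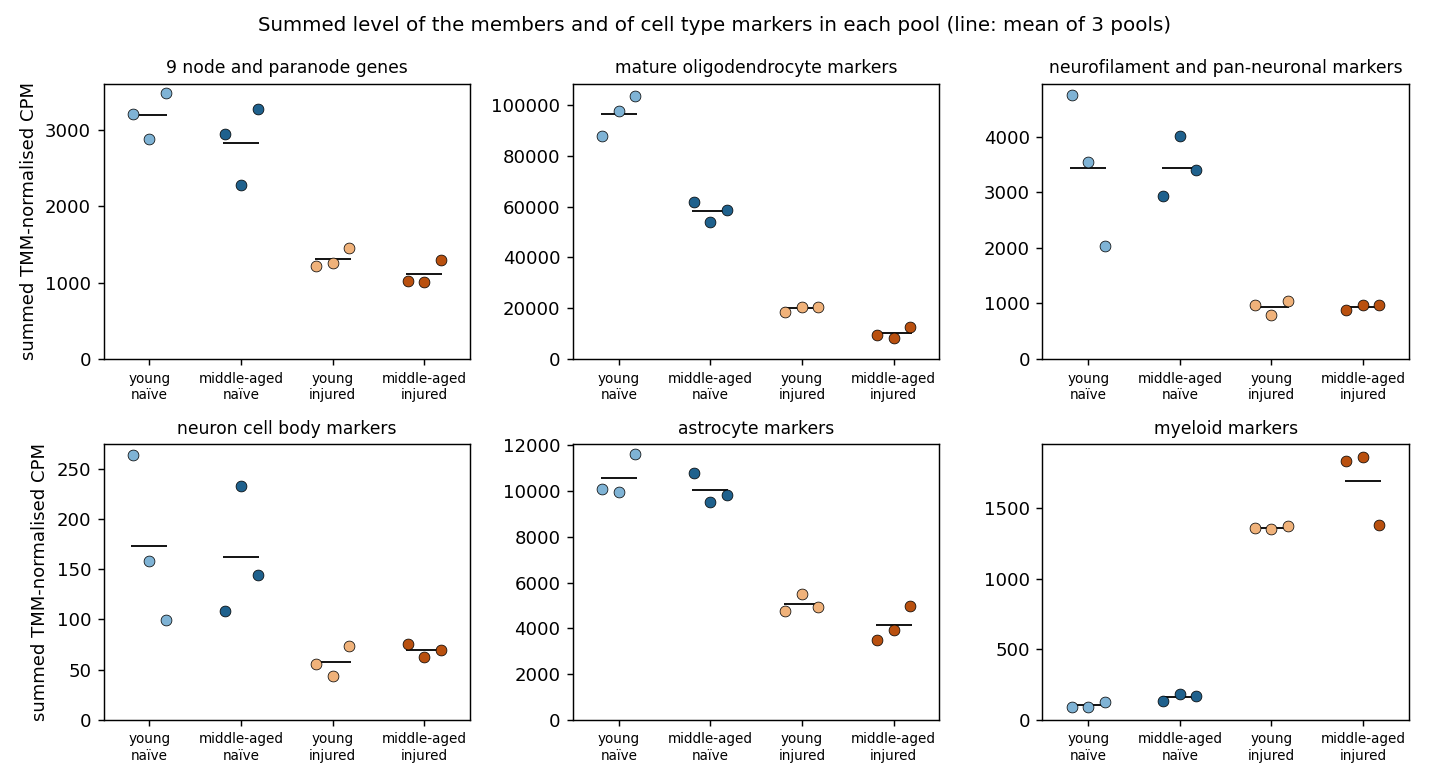
Each panel plots the summed TMM-normalised CPM of a list of genes in each of the 12 pools, on linear axes from 0, with a line at the mean of each group of 3. The members, the mature oligodendrocyte, neuronal and astrocyte markers are lower in injured pools, and the myeloid markers are higher, at 1352 to 1866 CPM against 89.6 to 183 CPM.

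The genes whose levels were most like those of each member were taken as the 3 with the highest Pearson's r of log2 CPM over the 12 pools, among 10180 genes of sufficient level. Scn8a had Paqr9 (0.995), Scn4b (0.993) and Scn1a (0.993), and Cntnap2 had Map1b (0.994), Kcnma1 (0.993) and Scn4b (0.992). Sptbn4 had Rasgrf1 (0.974), Prune2 (0.971) and Pnma2 (0.971), and Cntnap1 had Lmtk2 (0.938) and Nap1l2 (0.931) among its 3. Cntn2 had Prickle2 (0.993), Plekhh1 (0.992) and Usp54 (0.992). For Cntn1 they were Brdt (0.994), Abat (0.993) and Pcdh9 (0.993), and for Nfasc they were Papss1 (0.979), Me1 (0.978) and Pcdh17 (0.978). Ank3 had Megf10 (0.990), Cyp2j9 (0.989) and Rassf8 (0.988), and Ank2 had Msi2 (0.996), Phkg1 (0.994) and Mboat2 (0.985). The 12 pools share the injury difference, which alone gives a high r to any gene that falls. Ranked by Spearman's rho instead, 0 to 2 of the 3 genes remained for each member.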

How the data were processed

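RNA of microdissected white matter was sequenced from 12 pools of 5 mice, 3 pools per group. Group, replicate number and day after injury came from the labels, and the ages in numbers and the 72 h from the study's methods. The authors checked reads with FastQC 0.11.4, mapped them to GRCm38 with TopHat 2.0.10 and Bowtie 1.1.2 (names and versions also in the submitters' processing notes), and deposited raw featureCounts counts, not normalized. The annotation release, strand setting and handling of shared reads were not given in the sources used here. RNA samples had been amplified, and the floor of 3 counts covers counting error only.

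The tests used edgeR 4.0.16 (R 4.3.3): filterByExpr, TMM factors, 1 quasi-likelihood fit of all 12 pools with 1 coefficient per group and no covariates, and p-values adjusted by the Benjamini-Hochberg method over 15866 genes at 0.05. Standard errors were derived from the estimate and its F statistic. A prior count of 2 was used for log2 CPM and for the log2 ratios. Intervals are 95% intervals of that fit and rest on the spread between pools. Of 46078 genes, 45143 had a symbol. All 12 columns of counts were used, and the edgeR and ratio steps were tested on simulated data. Labels do not say that pools of a group came from separate cohorts, so p-values measure the spread between these pools.

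The members, the gene lists and the tests were chosen with earlier results of these data known. All 9 members were named. Of each list, at most the 2 most increased and the 2 most decreased called genes of a comparison were named, and for each member the 3 genes most like it among genes with a mean log2 CPM of at least 3. A few genes that these rules name are not reported here. Alternatives were 3 other scalings, DESeq2 1.42.0, 2 other filters, a fit of only the pools compared, the replicate number as a block and each pool left out in turn. The test of the ratios between ages was added after the data were examined. Same-numbered pools of the groups compared correlated in their deviations from the group means with r of -0.113 to 0.153, so the numbers were not taken to pair pools. Pools of the same group differed by more than sampling noise (chi-square per degree of freedom 7.48 to 35.7).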

Additional observations from a re-analysis of the deposited data

Results flagged for a closer look

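The change of Bcan with injury differed between ages by the interaction test (middle-aged minus young log2 -1.83, SE 0.29, adjusted p = 0.0264, edgeR's quasi-likelihood test with Benjamini-Hochberg adjustment). Bcan measured 70.2, 63.7 and 65.7 CPM in young naïve and 15.8, 19.8 and 24.9 CPM in young injured pools. In middle-aged mice it measured 45.1, 76.0 and 60.1 CPM in naïve and 5.23, 5.59 and 4.58 CPM in injured pools, so that the injured groups were apart and the naïve groups overlapped.

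The change with injury of the log2 ratio of Ank2 to Ank3 had opposite signs in the 2 ages, with every injured pool above the naïve pools in young mice and below them in middle-aged mice. The difference, middle-aged minus young, was -0.47. An exact 2-sided permutation test of the age labels within naïve and within injured pools, chosen after the data were seen, gave p = 0.02 and an adjusted p of 0.10 over the 5 pairs, which fails the correction. For the other 4 pairs the same test gave adjusted p of 0.542 to 0.88.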

How the results depend on the processing

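The 9 falls with injury at each age were called under every alternative that kept all 12 pools. With 1 pool left out, Cntnap1 was the one member to lose its call, in the 3 cases given above. With the replicate number as a block, 1 member, Nfasc, was called lower with age in naïve mice (log2 -0.46, adjusted p = 0.0272, edgeR) and in injured mice (-0.46, adjusted p = 0.0495), and without a filter on low counts it was called in naïve mice (-0.48, adjusted p = 0.033). The cause was not tested. The block changed no other call of a member in the edgeR tests. Some estimates that were never called changed sign. The difference of injury effects of Scn8a was 0.00666 with DESeq2 size factors, 0.00692 with DESeq2 and 0.00493 without a filter, and that of Nfasc was -0.0865 with library totals. Ank2 with age in naïve mice was -0.0114 without a filter and -0.0177 with the block. With 1 pool left out, the log2 values for age in naïve mice ranged from -0.21 to 0.20 for Cntn2, -0.11 to 0.19 for Ank2, -0.35 to 0.26 for Scn8a, -0.23 to 0.58 for Cntnap2 and -0.17 to 0.13 for Ank3. Those for the difference of injury effects ranged from -0.23 to 0.51 for Cntnap1, -0.37 to 0.24 for Scn8a, -0.13 to 0.13 for Nfasc, -0.76 to 0.0437 for Cntnap2, -0.0508 to 0.24 for Ank3 and -0.21 to 0.00724 for Cntn1. For age in injured mice they ranged from -0.19 to 0.078 for Sptbn4, -0.35 to 0.10 for Cntnap2, -0.25 to 0.0508 for Scn8a and -0.0462 to 0.16 for Ank3. The change of the ratio of Cntn2 to Cntn1 was -0.35 in young and -0.68 in middle-aged pools alone, and that of Cntnap2 to Cntnap1 was -0.68 and -1.12, where 3 pools against 3 cannot pass the exact permutation test. Under the replicate block these changes were -0.52 and -0.90, each with an adjusted p of 0.156 (exact permutation), and with 1 pool left out they ranged from -0.61 to -0.42 and from -1.10 to -0.74. The change of the log2 ratio of Ank2 to Ank3 was -0.19 in middle-aged pools alone. Library totals in place of TMM moved the median of all genes to 0.197 for injury in young mice, and the members' median there was -1.23. Genes of the 6 lists called with age in injured mice numbered 3, or 5 with library totals and 8 with DESeq2. Depth limits Cntnap1 and Sptbn4 most, with 19 to 165 counts a pool.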
